A study of Mus musculus with 6 samples.

Results

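The 10 genes described here belong to autophagy and mitophagy, the routes by which a maturing red cell takes its organelles apart, and were measured in mouse erythroid cells with and without depletion of the histone methyltransferase SetD8. The genes were Bnip3l, Ulk1, Map1lc3a, Map1lc3b, Gabarap, Gabarapl1, Gabarapl2, Becn1, Atg7 and Sqstm1, and every non-control probe that the array files name for one of them was used. This gave 17 probes on 26 spots for 10 genes, of 55681 probes on 59305 spots under 34844 gene names in all. The cells were G1E-ER-GATA-1, a mouse erythroid progenitor line without its own Gata1 that carries GATA-1 fused to an estrogen receptor ligand-binding domain, so that estradiol switches on red cell maturation. The SetD8 siRNA group (3 arrays) received siRNA against Setd8, which adds a single methyl group to lysine 20 of histone H4, and the control siRNA group (3 arrays) received non-targeting siRNA. Both groups were transfected at 0 h and again at 24 h, were given β-estradiol at 24 h and were harvested at 48 h, so each array holds cells after 24 h of estradiol. No array analysed here was without estradiol, and whether GATA-1 induced these genes could not be measured. All arrays come from 1 cell line, and the labels do not state whether replicate arrays were separate cultures. The p-values therefore measure the spread between these 6 arrays alone, and that spread may be technical.

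Autophagy wraps cell contents in a double membrane, the autophagosome, and delivers them to the lysosome for breakdown. The kinase ULK1 starts the process, Beclin 1 (Becn1) belongs to the lipid kinase complex that marks the new membrane, and ATG7 is the enzyme that activates the ubiquitin-like ATG8 proteins for attachment to lipid. The ATG8 proteins are the LC3 proteins (Map1lc3a, Map1lc3b) and the GABARAP proteins (Gabarap, Gabarapl1, Gabarapl2), to which cargo receptors bind. NIX, the product of Bnip3l, is the receptor on mitochondria through which reticulocytes clear them, and p62 (Sqstm1) is a receptor for ubiquitin-tagged cargo.

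The arrays were 1-colour Agilent arrays, and their values are given in 2 settings. In the first, the log2 processed signal is set relative to the array's 75th percentile. In the second, the mean signal was background-corrected by normexp with an offset of 50 and quantile-normalized between arrays. Differences are SetD8 siRNA minus control siRNA on the log2 scale, tested with limma over all 30987 probes kept. The share of spots well above background was 60.3% to 68.6% on the SetD8 siRNA arrays and 64.1%, 40.2% and 82.5% on control siRNA arrays 1, 2 and 3, and 0 spots were saturated. SetD8 siRNA arrays 1 and 2 shared slide 1 with control array 1, and SetD8 siRNA array 3 shared slide 3 with control array 3. Control array 2 stood alone on slide 2 and was scanned on a different day from all other arrays. With slide as a block, control array 2 therefore adds nothing to the difference between the groups. The brighter Setd8 probe was lower by 2.24 on the log2 scale at the 75th percentile (SE 0.51, 4.72-fold, limma adjusted p = 0.931) and by 2.08 after normexp and quantile normalization (SE 0.16, 4.23-fold, adjusted p = 0.0172, or 0.0753 with slide as a block). A two-sided exact permutation test gave p = 0.1 for either Setd8 probe and setting, the smallest value that 3 against 3 arrays can reach. All 9 erythroid marker genes examined, among them Hba-a1, Alas2 and Klf1, gave a signal well above background on each of the 6 arrays. Their summed linear level relative to the 75th percentile was 2244 to 3347 on SetD8 siRNA arrays and 1987 to 4291 on control arrays. Hba-a1 was the brightest on every array and weighed most in that sum. At that scaling Hbb-b1 and the brighter Epb42 probe were higher on every SetD8 siRNA array than on every control array, and Slc4a1 was lower. Over all probes 4.53% were higher and 3.01% lower without overlap. After normexp and quantile normalization the differences were 1.17 for Hbb-b1 (limma adjusted p = 0.455), 0.41 for this Epb42 probe (adjusted p = 0.556) and −1.21 for Slc4a1 (adjusted p = 0.303). A signal well above background on each of the 6 arrays was also given by 3 of 5 megakaryocyte, 1 of 4 mast cell and 2 of 5 lymphoid markers. Ms4a2, a mast cell marker, gave such a signal on 0 arrays. At the 75th percentile the brighter probe of Cd4, a lymphoid marker, was higher without overlap, at 2.83 to 3.22 against 1.66 to 2.24 on control arrays. So was Itga2b, a megakaryocyte marker, at 0.52 to 0.82 against −0.91 to 0.26. After normexp and quantile normalization they differed by 1.00 (limma adjusted p = 0.34) and 0.47 (adjusted p = 0.497). The other megakaryocyte, mast cell and lymphoid probes overlapped. The summed level of the megakaryocyte markers was 52.2 to 136.5 on SetD8 siRNA arrays and 49.6 to 64.7 on control arrays, that of the mast cell markers 3.41 to 5.33 and 2.51 to 7.15, and that of the lymphoid markers 12.3 to 18.8 and 7.41 to 12.3.

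None of the autophagy and mitophagy probes passed the test (0 of 17 in either setting). As each array holds RNA of many cells, fewer cells of a type and less RNA per cell cannot be told apart. At the 75th percentile, limma called 0 of 17 at an adjusted p under 0.05, against 0% of all probes tested, and 0 of 17 had an unadjusted p under 0.05, against 2.49%. After normexp and quantile normalization it again called 0 of 17, against 0.316% of all probes, while 4 of 17 had an unadjusted p under 0.05, against 10.4% of all probes. All 4 were higher with SetD8 siRNA, against 5.53% of all probes, and 0 were lower, against 4.89%. In that setting the arrays of the 2 groups did not overlap on 5 probes, all higher with SetD8 siRNA, against 9.08% of all probes. The 5 were Ulk1, Map1lc3a, Map1lc3b and a pair of Gabarap probes, so they stand for 4 genes. In the first setting 1 probe, Map1lc3a, was higher without overlap, against 4.53% of all probes. No probe was lower without overlap in either setting (0 of 17), against 3.01% of all probes at the 75th percentile and 8.71% after normexp and quantile normalization. With slide as a block 0 of 17 passed in either setting, against 0.41% of all probes at the 75th percentile and 0% in the second setting. Of the 17 differences 7 were positive at the 75th percentile, against 56% of all probes, and 8 in the second setting, against 51.7%. The median difference of the 17 probes was −0.07 and −0.08 in the first and second setting, against 0.09 and 0.01 over all probes. Other ways of estimating the spread did make calls: with trend and robust moderation after normexp and quantile normalization, Gabarap probes 1 and 3 passed (adjusted p = 0.0185 and 0.0406), where 2.56% of all probes were called. With limma array weights, Map1lc3a passed in both settings and Gabarap probes 1 and 3 in the second, under weights that called 12.6% of all probes at the 75th percentile and 10% after normexp and quantile normalization. Scaling to each array's median lowers every difference alike and put the median of all probes at −0.41. Ulk1 (−0.27), Map1lc3b (−0.31) and Gabarap probes 1 and 3 (−0.0143 and −0.0385) were then negative but above that median, and Map1lc3a was at 0.15. Without control array 3 at the 75th percentile, Ulk1 was at −0.08, Map1lc3b at −0.18, Gabarap probe 3 at −0.02 and Map1lc3a at 0.46. All 17 probes had passed the filter on dim probes, and 16 were well above background on all 6 arrays.

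**Figure D1:**
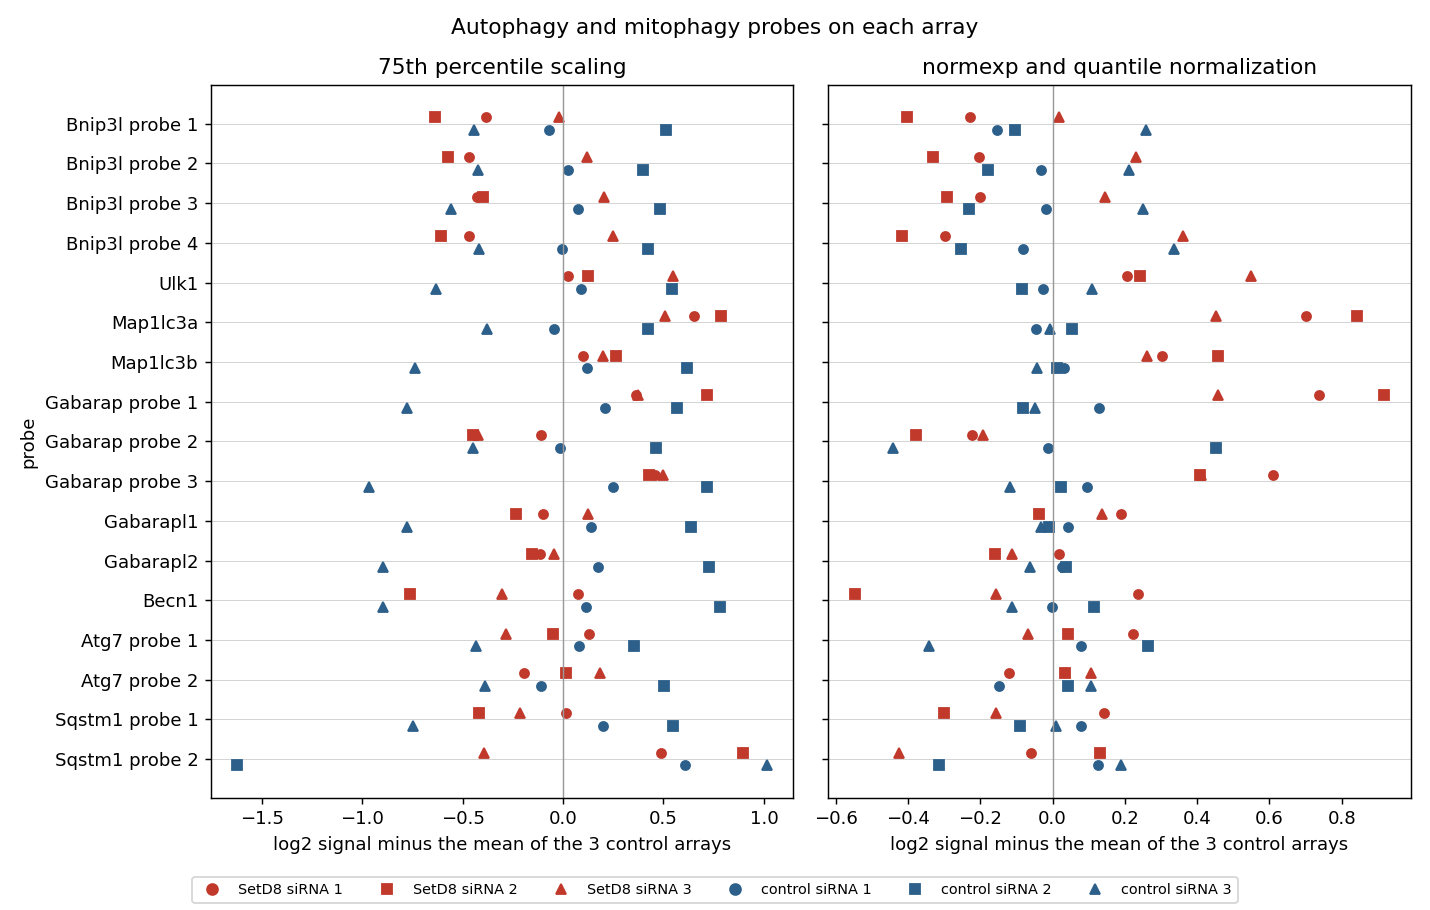
Log2 signal of each of the 17 probes on each array, relative to the mean of the 3 control siRNA arrays of that probe, at the 75th percentile (left panel) and after normexp and quantile normalization (right panel, with a narrower axis); red symbols are SetD8 siRNA arrays and blue symbols control siRNA arrays. In the right panel all SetD8 siRNA arrays lie above all control arrays for Ulk1, Map1lc3a, Map1lc3b and Gabarap probes 1 and 3, and in the left panel for Map1lc3a, where control arrays 2 and 3 lie at the 2 ends for most probes.

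Among the ATG8 genes, Gabarap had the widest difference between the groups in the second setting, on a probe near the 3′ end of its transcript (probe 1, mm9, chr11:69808343-69808402). Its normexp and quantile log2 signal was 14.85, 15.03 and 14.57 on SetD8 siRNA arrays 1, 2 and 3, against 14.24, 14.03 and 14.07 on control siRNA arrays 1, 2 and 3. Every SetD8 siRNA array lay above every control array. The difference was 0.70 ± 0.16 (SE), or 1.63-fold with a 95% interval of 1.25 to 2.12, with an adjusted p of 0.166, and it was 0.70 within slide 1 and 0.50 within slide 3. The same probe at the 75th percentile gave 7.18, 7.53 and 7.19 on SetD8 siRNA arrays, against 7.02, 7.38 and 6.04 on control arrays. There the groups overlapped, since control array 2 lay above SetD8 siRNA arrays 1 and 3, and the difference was 0.48 with an interval of −0.56 to 1.53.

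The differences of the 3 Gabarap probes did not have the same sign, and the probes lie at different places in the gene. Probe 3 (mm9, chr11:69806095-69806154, plus strand) lies in the coding sequence and gave 13.41, 13.21 and 13.21 on SetD8 siRNA arrays, against 12.90, 12.83 and 12.69 on control arrays, a difference of 0.48 ± 0.13 (SE) with an adjusted p of 0.244. Probe 2 (mm9, chr11:69804812-69804871, plus strand) gave 6.71, 6.55 and 6.74 on SetD8 siRNA arrays, against 6.92, 7.39 and 6.49 on control arrays, and the groups overlapped. Its difference was −0.27 with an interval of −0.82 to 0.29, which includes 0. Probe 2 was far dimmer than the others, though well above background on all 6 arrays. Its processed signal was 27.5 to 65.2 over the arrays, against 16062 to 31017 for probe 1 and 5856 to 13775 for probe 3. Probe 2 matches, base for base, the last 60 bases before the Gabarap start site in the RefSeq promoter table (GRCm38.p6, plus strand, 250 bases at chr11:69991120-69991369), which places it just upstream of the transcript. The array files instead place it at base 167 of a Gabarap transcript, so which of these holds, and what the probe 2 value measures, is not settled here. Probe 3 and the promoter window are shown because the differences of these probes have unlike signs, with the bases of probe 2 in capitals in the window.
Gabarap probe 3: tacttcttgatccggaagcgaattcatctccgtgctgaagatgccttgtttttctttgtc
Gabarap promoter window: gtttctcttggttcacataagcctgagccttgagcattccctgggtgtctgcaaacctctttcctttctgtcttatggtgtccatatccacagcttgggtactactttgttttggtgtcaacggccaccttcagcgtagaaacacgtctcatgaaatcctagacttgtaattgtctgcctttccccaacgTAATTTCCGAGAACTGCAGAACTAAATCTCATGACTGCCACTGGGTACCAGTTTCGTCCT

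Map1lc3a, which encodes LC3A (mm9, chr2:155103435-155103494), was the one gene whose arrays did not overlap in either setting. Its log2 signal at the 75th percentile was 1.74, 1.88 and 1.60 on SetD8 siRNA arrays, against 1.04, 1.51 and 0.71 on control arrays. The difference was 0.65 with an interval of −0.20 to 1.50, which includes 0. In the second setting it gave 9.45, 9.60 and 9.21 on SetD8 siRNA arrays, against 8.71, 8.81 and 8.75 on control arrays. The difference of 0.66 ± 0.14 (SE), or 1.58-fold with an interval of 1.25 to 2.01, had the smallest adjusted p of the 17 probes, 0.149. It was 0.82 within slide 1 and 0.46 within slide 3.

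Map1lc3b, which encodes LC3B, the protein most used to count autophagosomes, was read by 1 probe on 10 spots (mm9, chr8:124121771-124121830). It gave 12.46, 12.61 and 12.41 on SetD8 siRNA arrays, against 12.18, 12.17 and 12.11 on control arrays, after normexp and quantile normalization. The groups did not overlap, and the difference was 0.34 ± 0.12 (SE), 1.27-fold, with an adjusted p of 0.378. The groups overlapped at the 75th percentile, and the difference there was 0.19. The other ATG8 genes gave smaller values in the second setting. Gabarapl1 differed by 0.10 with an interval of −0.20 to 0.39, and Gabarapl2, which encodes GATE-16, by −0.08 with an interval of −0.38 to 0.21. Both overlapped between the groups. These are among the narrowest intervals of the 17 probes, whose half-widths ran from 0.29 to 0.61.

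Ulk1, Becn1 and Atg7 act in initiation and conjugation. The Ulk1 probe (mm9, chr5:111213514-111213573) gave 11.96, 12.00 and 12.31 on SetD8 siRNA arrays, against 11.73, 11.67 and 11.87 on control arrays, after normexp and quantile normalization. The groups did not overlap, but the difference of 0.33 ± 0.15 (SE) had an interval of −0.02 to 0.68 and an adjusted p of 0.511. Becn1 gave 10.65, 9.87 and 10.26 on SetD8 siRNA arrays, against 10.41, 10.53 and 10.30 on control arrays. SetD8 siRNA array 1 was the highest of the 6 for Becn1 and SetD8 siRNA array 2 the lowest, and the difference was −0.16 with an interval of −0.66 to 0.35. The Atg7 probes differed by 0.06 and 0.01, with intervals of −0.39 to 0.52 and −0.32 to 0.33.

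Bnip3l, the mitochondrial receptor gene, was read by 4 probes (chromosome 14, mm9), all with a negative difference and overlapping groups in both settings. On the brightest, probe 3 (chr14:67606210-67606269), the normexp and quantile log2 signal was 13.55, 13.46 and 13.90 on SetD8 siRNA arrays, against 13.73, 13.52 and 14.00 on control arrays. Array 3 was the highest array of each group. The differences of probes 1 to 4 were −0.20, −0.10, −0.12 and −0.12, with adjusted p of 0.808 to 0.935. Without control array 3, probes 2, 3 and 4 gave 0.0039, 0.0098 and 0.0506. With all arrays, the lower ends of their intervals allow a reduction of at most 1.47-fold on probe 3 and 1.65-fold on probe 4. At the 75th percentile the differences were −0.35, −0.31, −0.21 and −0.28, with intervals reaching −1.29 and 0.77. On probe 3 that scaling gave 6.11, 6.14 and 6.74 on SetD8 siRNA arrays, against 6.61, 7.02 and 5.98 on control arrays. Control array 2 was there the highest of the 6 and control array 3 the lowest, and the difference of probe 3 was −0.49 within slide 1 and 0.76 within slide 3.

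Across the 6 arrays, the genes whose pattern lay closest to Bnip3l probe 3 after normexp and quantile normalization were Plekhg3, Eya1 and Fam54a, at root mean square distances of 0.019, 0.019 and 0.041 (log2). Of 30986 other probes, 152 lay within 0.1. The other Bnip3l probes, 1, 2 and 4, lay at 0.093, 0.047 and 0.118.

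Sqstm1, the p62 gene, gave 11.27, 10.83 and 10.97 on SetD8 siRNA arrays, against 11.21, 11.04 and 11.14 on control arrays, on the brighter of its probes (probe 1, mm9, chr11:50015985-50016044). The groups overlapped, and the difference was −0.10 with an interval of −0.47 to 0.27. Probe 2 was the one probe of the 17 that was not well above background on every array, falling short on control array 2. It differed by −0.12 in the second setting and by 0.33 at the 75th percentile, where its interval was the widest, −1.46 to 2.12.

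**Figure D2:**
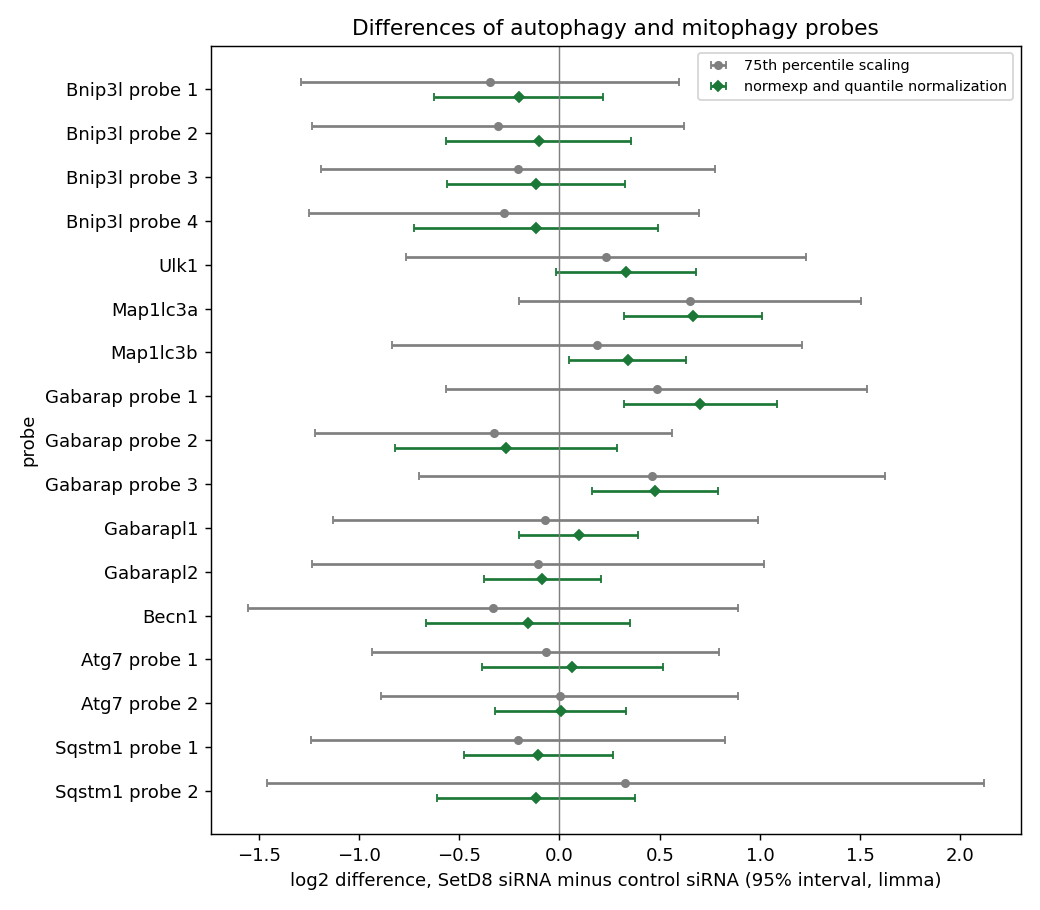
Log2 difference, SetD8 siRNA minus control siRNA, of each of the 17 probes with its 95% interval from limma, at the 75th percentile (grey circles) and after normexp and quantile normalization (green diamonds). The grey intervals all include 0, and the green intervals leave out 0 for Map1lc3a, Map1lc3b and Gabarap probes 1 and 3 before adjustment over all probes.

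The control arrays varied more than the SetD8 siRNA arrays at the 75th percentile. The median SD of the 17 probes there was 0.21 over the SetD8 siRNA arrays and 0.59 over the control arrays, against 0.27 and 0.71 over all probes. Control array 3 was the lowest of the 6 arrays on 12 of the 17 probes, against 38.9% of all probes, and control array 2 the highest on 13 of 17, against 44.1%. After normexp and quantile normalization the median SD was 0.20 over the SetD8 siRNA arrays and 0.11 over the control arrays, against 0.16 and 0.26 over all probes. Control array 3 also had the highest share of spots well above background and control array 2 the lowest, and the part of this in the results was not tested.

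The promoter table held 7 of the 10 genes, all except Bnip3l, Map1lc3a and Becn1. In the 250 bases before the start, the letters GATAA, a form of the site that GATA factors bind, were sought on either strand. They stood in 0 of the 7, and in 22.6% of 32851 promoters. The 7 were counted by gene and the whole table by promoter, and other forms of the site were not counted. The letters CACGTG stood in 1 of the 7, Atg7, and in 6.02% of promoters.

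The other genes of the pathway were read by 107 probes tested, for 77 genes, and limma called 0 higher and 0 lower in either setting. After normexp and quantile normalization 14 were higher and 3 lower at an unadjusted p under 0.05, against 5.53% and 4.89% of all probes, and at the 75th percentile 2 were higher and 3 lower, against 2.49% of all probes in either direction. Without overlap of the groups, 23 were higher and 7 lower in the second setting, against 9.08% and 8.71% of all probes, and 4 were higher and 4 lower at the 75th percentile, against 4.53% and 3.01%. The median difference was 0.08 in the second setting and 0.07 at the 75th percentile. The 4 lists that act before fusion had medians on either side of 0 in the second setting and below 0 at the 75th percentile, at −0.25, −0.04, −0.17 and −0.11 in the order given here. In the second setting the initiation complex had a median of −0.19, with Rb1cc1, the scaffold FIP200, at −0.27 and Atg13 at −0.18. The class III PI3-kinase complex had a median of 0.07, with Atg14, its autophagy-specific subunit, at 0.42 and Rubcn, its inhibitor Rubicon, at 0.21. The genes of lipid supply had a median of −0.09, with Wdr45b at −0.40 and Vmp1 at 0.26. Those of ATG8 conjugation had a median of 0.03, with Atg10 at 0.53 and Atg16l1 at −0.17. The fusion genes had a median of 0.18, with Snap29 and Stx17, both SNAREs of the fusion step, at 0.23 and 0.26. The transcription factors of autophagy genes had a median of 0.09, with Tfe3 at 0.40 and Foxo3 at −0.17. The mitophagy and selective receptors had a median of 0.05 and the nutrient-sensing genes of 0.02.

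As a list, chosen like the second setting with earlier results of these data known, the lysosomal genes stood on the higher side. Of their 20 probes for 15 genes, 18 had a positive difference after normexp and quantile normalization, with a median of 0.43, against 51.7% positive and a median of 0.01 over all probes. On 10 of the 20 the arrays did not overlap, all higher with SetD8 siRNA, against 9.08% of all probes. An unadjusted limma p under 0.05 was found for 9, all higher, against 5.53% of all probes. At the 75th percentile the arrays did not overlap on 2 of the 20, both higher, against 4.53% of all probes. There 0 had an unadjusted p under 0.05, against 2.49% of all probes in either direction. None passed the test in either setting (0 of 20). In the second setting Ctsa, the protective protein cathepsin A, gave 13.00, 12.89 and 12.65 on SetD8 siRNA arrays, against 11.95, 11.93 and 11.70 on control arrays. The difference was 0.99, or 1.98-fold, with an adjusted p of 0.0722. Ctsd, the protease cathepsin D, gave 14.46, 14.81 and 14.13 on SetD8 siRNA arrays, against 13.54, 13.38 and 13.45 on control arrays, a difference of 1.01 with an adjusted p of 0.111. Both of these probes passed where the test was limited to probes well above background on all 6 arrays (adjusted p = 0.0285 and 0.0491). Under that filter 1.69% of probes were called. Another Ctsd probe differed by 0.77 (limma adjusted p = 0.138) and did not pass under that filter (adjusted p = 0.0626). With slide as a block, the limma adjusted p was 0.157 for Ctsa and 0.258 for the Ctsd probe that passed. At the 75th percentile the list's median was 0.39, and without control array 3 it was −0.12, with 8 of 20 positive. Without that array the median after normexp and quantile normalization was 0.32, with 17 of 20 positive, and within slides 1 and 3 it was 0.45 and 0.45. Under scaling to each array's median the list's median was −0.11, against −0.41 over all probes. Lysosomal genes are also abundant in macrophages. Of 6 granulocyte and macrophage markers 4 gave a signal well above background on each array, Mpo did so on at most 1 array and Ly6g on 3. Their summed level relative to the 75th percentile was 22.8 to 31.4 on SetD8 siRNA arrays and 18.3 to 31.6 on control arrays. An Itgam probe was the brightest and weighed most in that sum. At that scaling the brighter Cd68 probe was higher without overlap, at 1.47 to 1.60 on SetD8 siRNA arrays against 0.52 to 1.16 on control arrays. So was the brightest Csf1r probe, at 1.83 to 2.47 against 0.47 to 1.50, where 4.53% of all probes were. The other tested probes of these markers overlapped. Their 9 tested probes differed by −0.16 to 0.97 in the second setting: Cd68 by 0.73 (adjusted p = 0.0823) and −0.16, Csf1r by 0.97, 0.10 and −0.06, Itgam by 0.05, 0.11 and 0.02, and Elane by 0.27. Their part in the result was not tested.

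Bnip3 and Sesn2 showed wider differences after normexp and quantile normalization than any of the 10 genes, in opposite directions. Bnip3, the hypoxia-induced paralog of Bnip3l and likewise a mitophagy receptor, was lower without overlap on its 3 probes in both settings. The share of all probes lower without overlap was 3.01% at the 75th percentile and 8.71% after normexp and quantile normalization. On the probe with the smallest p it gave 7.57, 7.53 and 8.13 on SetD8 siRNA arrays, against 8.98, 8.67 and 8.95 on control arrays, after normexp and quantile normalization. The 3 differences were −1.06, −1.12 and −1.15, with adjusted p of 0.278, 0.0962 and 0.297. The second passed under the same stricter filter (adjusted p = 0.0415) but not with slide as a block (limma adjusted p = 0.177). Within slides 1 and 3 the second probe gave −1.43 and −0.83, and SetD8 siRNA array 3 was the highest of its group on all 3 probes. Sesn2, the stress-induced sestrin that restrains mTORC1, gave 11.80, 12.45 and 11.95 on SetD8 siRNA arrays, against 10.91, 10.63 and 11.21 on control arrays, a difference of 1.15 with an adjusted p of 0.125. Sesn2 did not pass under the stricter filter (limma adjusted p = 0.0564) or with slide as a block (adjusted p = 0.324). Its difference was 1.22 within slide 1 and 0.74 within slide 3. The mitochondrial receptor gene Bcl2l13 differed by 0.56 (adjusted p = 0.194) and Sesn1 by 0.22. The difference between Bnip3 and Bnip3l was not tested.

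**Figure D3:**
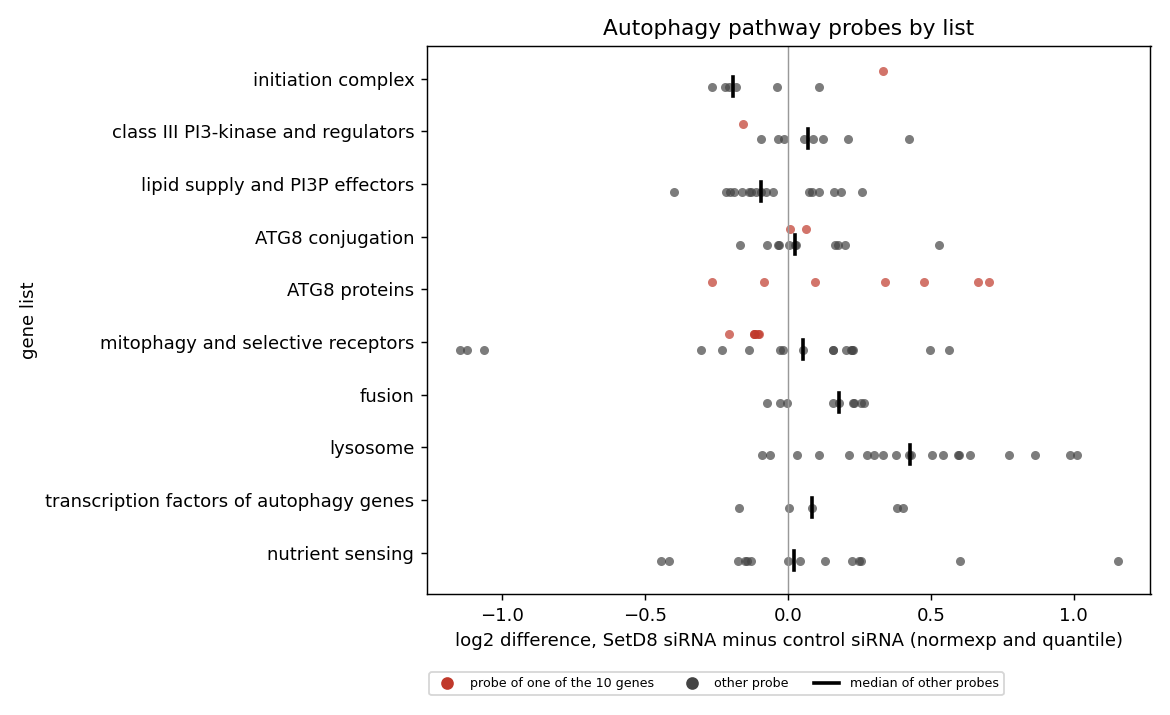
Log2 difference, SetD8 siRNA minus control siRNA, after normexp and quantile normalization for each tested probe of the pathway lists, with the 17 probes of the 10 genes marked; the bar in each list is its median over probes of other genes. The lysosome list has 18 of 20 probes above 0, Bnip3 lies at −1.06 to −1.15 and Sesn2 at 1.15.

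**Figure D4:**
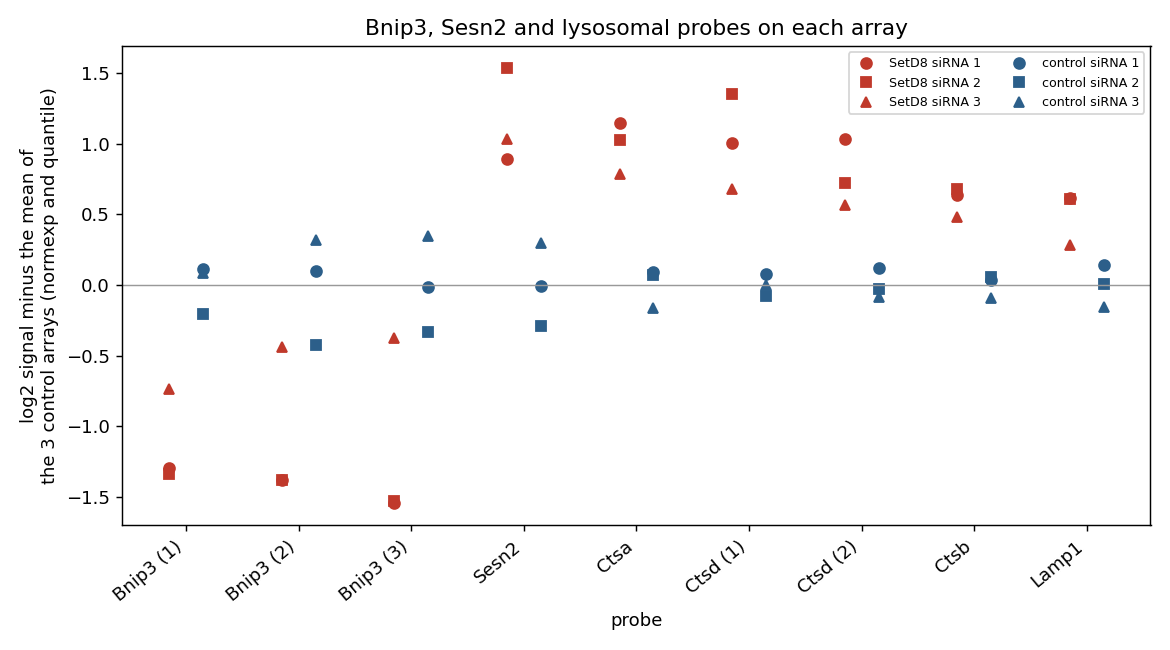
Log2 signal of Bnip3, Sesn2 and lysosomal probes on each array after normexp and quantile normalization, relative to the mean of the 3 control siRNA arrays; red symbols are SetD8 siRNA arrays and blue symbols control siRNA arrays, and Ctsb and Lamp1 were added after their values were seen. The 3 SetD8 siRNA arrays lie below all control arrays for Bnip3 and above them for the other probes shown.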

How the data were processed

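RNA of 6 samples was measured on 1-colour (Cy3) Agilent arrays. The values the authors deposited are linear spot intensity, extracted with Agilent Feature Extraction (version 10.7.3.1, per the file headers), which also place the probes on mm9. The submitters' processing notes name limma without a version, and the sources used here do not describe normalization between arrays. The deposited series matrix held the same processed intensity (100% of values within 0.006).

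Control spots and outlier spots were left out and spots of a probe averaged, which left 55681 probes. The 30987 kept probes were well above background on every array of 1 group or both. Groups came from sample titles. Two-sided tests used limma 3.58.1 (lmFit and eBayes) in R 4.3.3 with the data.table package (version 1.17.8), and Benjamini-Hochberg adjustment over the kept probes at a threshold of 0.05, after a test on simulated data. The simulated noise was independent and had the same spread in both groups, so it did not model the unequal spread of these arrays. Python 3.11.15 with numpy 2.4.6 and pandas 2.3.3 read the files, and matplotlib 3.10.9 drew the figures. Intervals are limma's 95% intervals for single probes, and the offset makes differences of dim probes smaller. The number of arrays limits the precision.

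Named were the 10 genes by every probe, Setd8, the 2 other genes with the smallest p in each pathway list after normexp and quantile normalization, and the 3 genes nearest to the brightest Bnip3l probe. The genes, the lists and the settings were chosen with earlier results of these data known, the second setting because counts of calls were known to differ. Pathway lists and markers came from textbook knowledge. Alternatives were other normalizations, filters, moderation, array weights, slide or replicate number as a block, and leaving out each array. Promoter sequences are from RefSeq (GRCm38.p6).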

Additional observations from a re-analysis of the deposited data

How the results depend on the processing

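Leaving out any 1 array, limma called 0 of the 17 probes in either setting. The counts of calls that moved were 1 with array weights at the 75th percentile, and, after normexp and quantile normalization, 3 with array weights and 2 with trend and robust moderation. Calls among the 107 other pathway probes were then 13 with array weights, 8 with trend and robust moderation and 3 (Ctsa, Ctsd and Bnip3) with the filter on all 6 arrays. Over all probes, limma called 0 at the 75th percentile and 98 (91 higher, 7 lower) after normexp and quantile normalization. At the 75th percentile it called 2053 higher and 1866 lower with array weights, 109 and 18 with slide as a block, 112 and 10 with the stricter filter, 97 and 6 without control array 2, 23 and 1 with normexp, and 4 and 0 with trend and robust moderation. After normexp and quantile normalization it called 1485 and 1626 with array weights, 495 and 299 with trend and robust moderation, 278 and 78 with the stricter filter, 32 and 1 with an offset of 16, and 0 with slide as a block, with a replicate block, or without control array 1 or any SetD8 siRNA array. Median scaling moved the median of all probes to −0.41, and the 75th percentile over detected probes to 0.22. Setd8 probe 1 was −2.24 (stricter filter), −2.42 (array weights), −1.93 (slide as a block), −2.08 (normexp and quantile) and −2.24 (normexp with the 75th percentile), each past the threshold, and −1.32 within slide 3, with −2.74 to −1.84 when 1 array was left out. Setd8 probe 2 was −1.50 with array weights (past the threshold), −1.69 within slide 1 and −0.79 within slide 3, with −1.58 to −1.25 when 1 array was left out. Signs of values that did not pass the test turned against the 75th percentile as follows. Array weights gave Sqstm1 probe 2 −0.19. Slide as a block gave Bnip3l probe 3 0.047, Gabarapl1 0.21, Gabarapl2 0.19, Atg7 probe 1 0.042 and Sqstm1 probe 2 −0.56. Normexp and quantile normalization gave Gabarapl1 0.096, Atg7 probe 1 0.065 and Sqstm1 probe 2 −0.12, and normexp with the 75th percentile gave Atg7 probes 1 and 2 0.032 and −0.081 and Sqstm1 probe 2 −0.015. Quantile normalization of the processed signal gave Bnip3l probe 3 0.033, Gabarapl1 0.18, Gabarapl2 0.11, Atg7 probe 1 0.059 and Sqstm1 probe 2 −0.12. Median scaling gave Ulk1 −0.27, Map1lc3b −0.31, Gabarap probes 1 and 3 −0.0143 and −0.0385, Atg7 probe 2 −0.50 and Sqstm1 probe 2 −0.17. The 75th percentile over detected probes gave Gabarapl1 0.0598, Gabarapl2 0.024 and Atg7 probe 1 0.0604. Within slide 1 Ulk1 was −0.0145, and within slide 3 Bnip3l probes 1 to 4 were 0.42, 0.54, 0.76 and 0.67, Gabarap probe 2 0.026, Gabarapl1 0.90, Gabarapl2 0.85, Becn1 0.59, Atg7 probe 1 0.15 and Sqstm1 probes 1 and 2 0.53 and −1.41. After normexp and quantile normalization, within slide 3 Bnip3l probes 2 and 4 were 0.019 and 0.024 and Gabarap probe 2 0.25, and within slide 1 0 signs turned. Leaving out 1 array at the 75th percentile gave ranges of −0.49 to 0.033 for Bnip3l probe 3, −0.082 to 0.50 for Ulk1, −0.18 to 0.50 for Map1lc3b, −0.022 to 0.82 for Gabarap probe 3, −0.46 to 0.25 for Gabarapl1, −0.55 to 0.26 for Gabarapl2, −0.78 to 0.0595 for Becn1, −0.29 to 0.11 and −0.19 to 0.25 for Atg7 probes 1 and 2, and −0.58 to 0.067 and −0.48 to 0.84 for Sqstm1 probes 1 and 2. After normexp and quantile normalization the ranges that crossed 0 were −0.27 to 0.013, −0.25 to 0.0098 and −0.36 to 0.051 for Bnip3l probes 2, 3 and 4, −0.35 to 0.041 for Becn1, −0.11 to 0.20 and −0.0675 to 0.0699 for Atg7 probes 1 and 2, and −0.27 to 0.036 for Sqstm1 probe 2. The cause of these changes was not tested. Whether replicate numbers pair the arrays is not settled here. The same-number correlations of deviations were 0.23, −0.28 and −0.42 at the 75th percentile. After normexp and quantile normalization they were 0.15, −0.28 and −0.29. The highest correlation was that of SetD8 siRNA array 3 with control array 2, 0.46 and 0.36 in the first and second setting. With the replicate block 0 of the 17 probes were called, the smallest adjusted p was 0.995 at the 75th percentile and 0.46 after normexp and quantile normalization, and 0 signs changed.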
